A study of Mus musculus with 12 samples.

Results

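The 2 fractions of the common myeloid progenitor (CMP) gate of mouse bone marrow, with and without the surface receptor CD27, were compared over all 45037 probe sets of an expression array. The 6 arrays of the CD27+ and CD27- CMP fractions, 3 each, were taken by their titles from the 12 arrays of the series. The other 6 arrays are granulocyte-monocyte progenitors (GMP) and megakaryocyte-erythrocyte progenitors (MEP), which served here only as reference points. The marrow donors were female C57BL/6 mice aged 4 to 6 weeks, with no genetic change or treatment. All cells were sorted as lineage-negative, CD117+ and Sca-1-. Both CMP fractions were further sorted as CD34+ and CD16/32-, and they differ in the gate only by CD27. GMP carried CD34, CD16/32 and CD27 in the gate, whereas MEP carried none of them. The labels call the 3 arrays of a fraction biological replicates and give no word on animals or pools, so p-values measure the spread between these arrays, which may be technical.

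Myeloid progenitors of the bone marrow give rise to red cells, platelets, granulocytes and monocytes, and the CMP gate was defined as the stage before the granulocyte-monocyte and the megakaryocyte-erythrocyte paths part. The choice between these paths is classically described through transcription factors, with Spi1 (PU.1), the C/EBP family and Irf8 on the granulocyte-monocyte side and Gata1, Klf1 and their cofactors on the erythroid side. CD27 is a member of the tumour necrosis factor receptor family, bound by CD70, and is found on stem and progenitor cells as well as on lymphocytes.

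The deposited values are log2 signals from which the median of the 12 arrays had been taken for each probe set, so a value says how far an array lies above or below the median array and a difference of 1 is a 2-fold difference. The absolute signal is lost. A probe set at about 0 everywhere may be silent or evenly expressed. In these bulk samples, fewer cells with a transcript and less of it per cell cannot be told apart. Array medians lay between -0.0267 and 0.0549. Over the 15263 probe sets that ranged by 1 log2 or more, pairs of arrays within CD27+ CMP differed by an SD of 0.489 to 0.582, pairs within CD27- CMP by 0.528 to 0.825, and pairs between the fractions by 1.56 to 1.69. CD27- CMP replicate 3 stood furthest from the other arrays of its fraction.

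RNA of the sorted surface molecules was compared with the gates first. Cd27 read 3.92, 4.18 and 4.19 in the 3 CD27+ CMP arrays and -2.36, -3.22 and -2.67 in the CD27- CMP arrays. The difference of 6.85 log2 (SE 0.24, adjusted p = 0.000186 by limma) followed the gate. Kit, which encodes CD117, read -0.52, 0.03 and -0.02 in CD27+ CMP and -0.93, -0.01 and -0.06 in CD27- CMP, and did not pass (difference 0.16, SE 0.31, adjusted p = 0.782). Cd34, part of the gate of both fractions, read 4.10, 4.00 and 4.20 in CD27+ CMP and -2.85, -2.88 and -3.93 in CD27- CMP. All CD27- CMP arrays lay below the GMP arrays, at 2.85 to 3.13, and nearer to the MEP arrays, at -3.17, -4.97 and -6.59. Cd34 RNA thus differed between fractions that share the CD34+ gate. Centred values cannot say whether it was absent from CD27- CMP, and the sort read protein while the arrays read RNA. The genes of the CD16/32 receptors also differed within a gate that is negative for both. Fcgr3 read 3.65, 1.92 and 1.04 in CD27+ CMP and -2.63, -2.50 and -2.39 in CD27- CMP, against 6.80 to 7.35 in GMP. Its call was lost without CD27- CMP replicate 1 (adjusted p = 0.0641) and without CD27- CMP replicate 2 (adjusted p = 0.0644). Sca-1 has no probe set with a single symbol and was not analysed here.

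**Figure D1:**
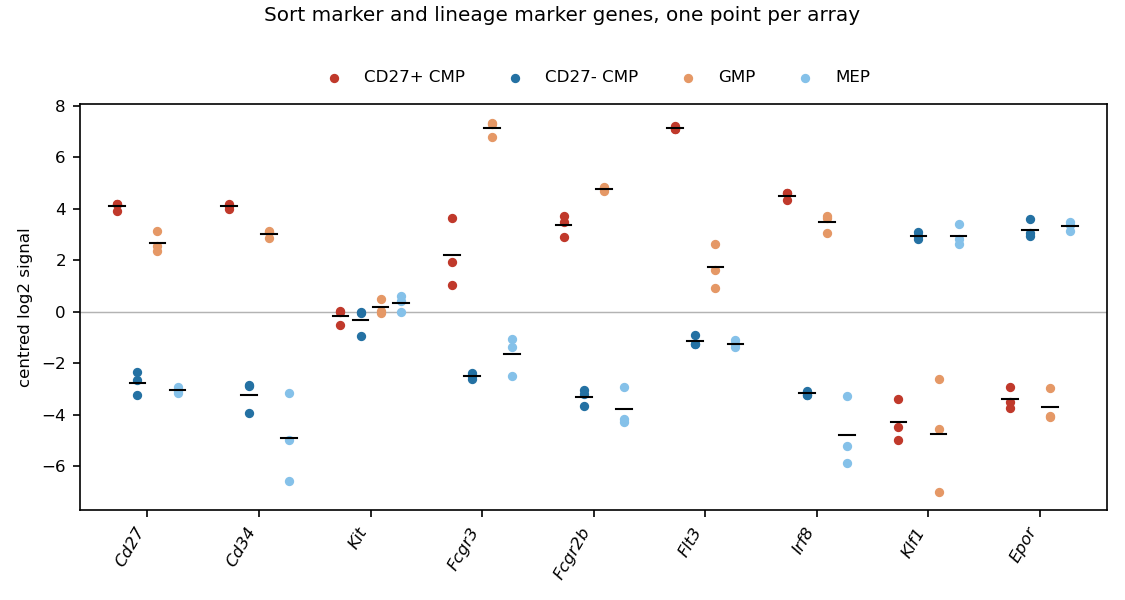
Centred log2 signal (vertical axis) of 9 sort and lineage marker genes in the 12 arrays, with 1 point per array and a bar at the mean of each population. Cd27, Cd34, Flt3 and Irf8 lie above 3 in every CD27+ CMP array and below 0 in every CD27- CMP array, Klf1 and Epor lie below 0 in every CD27+ CMP array and above 2 in every CD27- CMP array, and Kit stays between -0.93 and 0.62.

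The comparison asked which genes separate the fractions that CD27 divides. The fractions differed at 4856 probe sets, 10.8% of those tested, at an adjusted p under 0.05 with limma. Of these, 2776 (6.16%) were higher and 2080 (4.62%) lower in CD27+ CMP. Represented by 1 probe set each, 2922 of 18193 genes differed (16.1%), 1701 of them higher (9.35%) and 1221 lower (6.71%) in CD27+ CMP. The counts of lower genes moved most with single arrays: 2247 genes were lower without CD27- CMP replicate 3, and 759 without CD27+ CMP replicate 3. The called differences had a median of 2.05 log2 for higher genes and -1.34 log2 for lower genes. At 4 log2 or more, 297 genes were higher and 134 lower. Between 2 and 4 log2, 577 were higher and 245 lower. Below 1 log2 the order turned, with 273 higher and 388 lower genes. Among the 1753 called genes with several probe sets, 746 had another probe set called in the same direction and 6 had one called in the opposite direction.

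**Figure D2:**
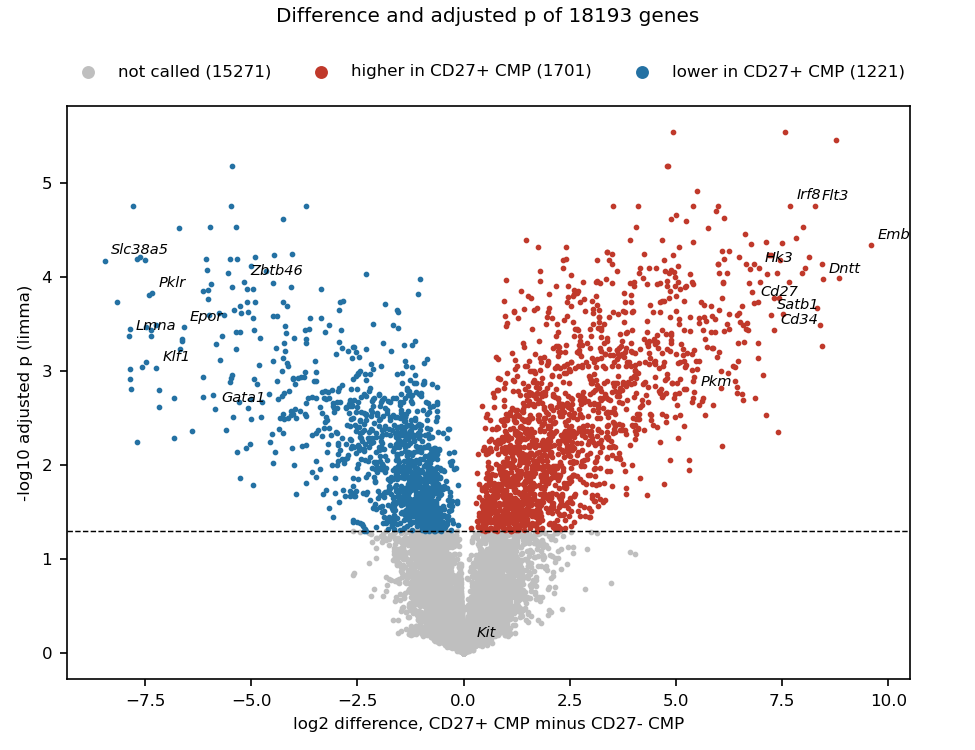
Log2 difference of CD27+ minus CD27- CMP (horizontal axis) against -log10 of the limma adjusted p (vertical axis) for 18193 genes, 1 point per gene, with the dashed line at an adjusted p of 0.05. The median difference is 2.05 for the 1701 higher genes and -1.34 for the 1221 lower ones. Emb at 9.60 and Slc38a5 at -8.44 lie at the ends, and Kit lies at 0.16 near the base.

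The 25 genes with the largest differences in favour of CD27+ CMP ran from 9.60 log2 for Emb down to 7.30 for Wfdc17. Emb, which encodes the transmembrane glycoprotein embigin, read 4.78, 4.33 and 4.25 in CD27+ CMP and -5.13, -5.35 and -4.97 in CD27- CMP (difference 9.60, SE 0.18, adjusted p = 4.51e-05). Mpeg1, a pore-forming protein of macrophages, read 4.48, 4.38 and 4.30 against -4.35, -4.36 and -4.46 (difference 8.78, SE 0.06, adjusted p = 3.42e-06). The 3 arrays of each fraction lay within 0.2 log2 of each other for Mpeg1. Sting1, the adaptor of cytosolic DNA sensing, read 4.16, 4.55 and 4.16 against -3.40, -3.61 and -3.61. Egln3, a prolyl hydroxylase that acts on hypoxia-inducible factors, read 3.59, 3.89 and 3.55 against -3.92, -3.93 and -3.60. Chdh, the choline dehydrogenase of mitochondria, read 3.58, 3.08 and 3.04 against -4.54, -5.04 and -4.61. Each of these genes sat above 3 in every CD27+ CMP array and below -3 in every CD27- CMP array. Myo1f, an unconventional myosin of leukocytes, had the narrowest error of the 25 (difference 7.57, SE 0.05, adjusted p = 2.87e-06), and its other probe sets differed by 4.44 and 5.94. Anxa3, an annexin of neutrophil granules, had the widest (difference 7.41, SE 0.74, adjusted p = 0.0044), with CD27- CMP replicate 2 at -5.89 and the others at -3.56 and -3.47.

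The 25 genes with the largest differences in favour of CD27- CMP ran from -8.44 log2 for Slc38a5 to -6.81 for Aqp1. Slc38a5, a transporter of glutamine and other small amino acids, read -4.67, -4.68 and -5.20 in CD27+ CMP and 3.82, 3.59 and 3.37 in CD27- CMP (SE 0.19, adjusted p = 6.63e-05). Lmna, which encodes the A-type nuclear lamins, read -4.38, -3.37 and -4.39 against 4.00, 4.11 and 3.37 (difference -7.87, SE 0.37, adjusted p = 0.000425). Its 4 other probe sets gave differences between -4.86 and -0.10, all with the same sign. Blood group and red cell membrane genes filled much of this side and are described with the erythroid lists. Outside those lists stood Sphk1, a sphingosine kinase (-7.83, SE 0.55, adjusted p = 0.00155), Trib2, a pseudokinase (-7.48, SE 0.43, adjusted p = 0.000795), and Myh10, a non-muscle myosin heavy chain (-7.37, SE 0.34, adjusted p = 0.000421). The other probe set of Myh10 differed by only -0.05, those of Trib2 by -0.13 and -3.27, and that of Sphk1 by -4.36. The retinaldehyde dehydrogenase genes Aldh1a1 and Aldh1a7 differed by -7.36 and -7.40. They are near copies, and how far their probe sets share signal was not tested. Prss50, a serine protease, was the tightest of the lower genes, with -3.48, -3.76 and -3.77 against 4.08, 4.06 and 4.19 (SE 0.10, adjusted p = 1.73e-05). Ermap was the loosest, with -3.64, -3.42 and -6.27 against 3.08, 3.47 and 3.22 (SE 0.83, adjusted p = 0.00573). CD27+ CMP replicate 3 also gave the lowest value for Rhd, Tspo2, Sphk1, Car1 and Aqp1.

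**Figure D3:**
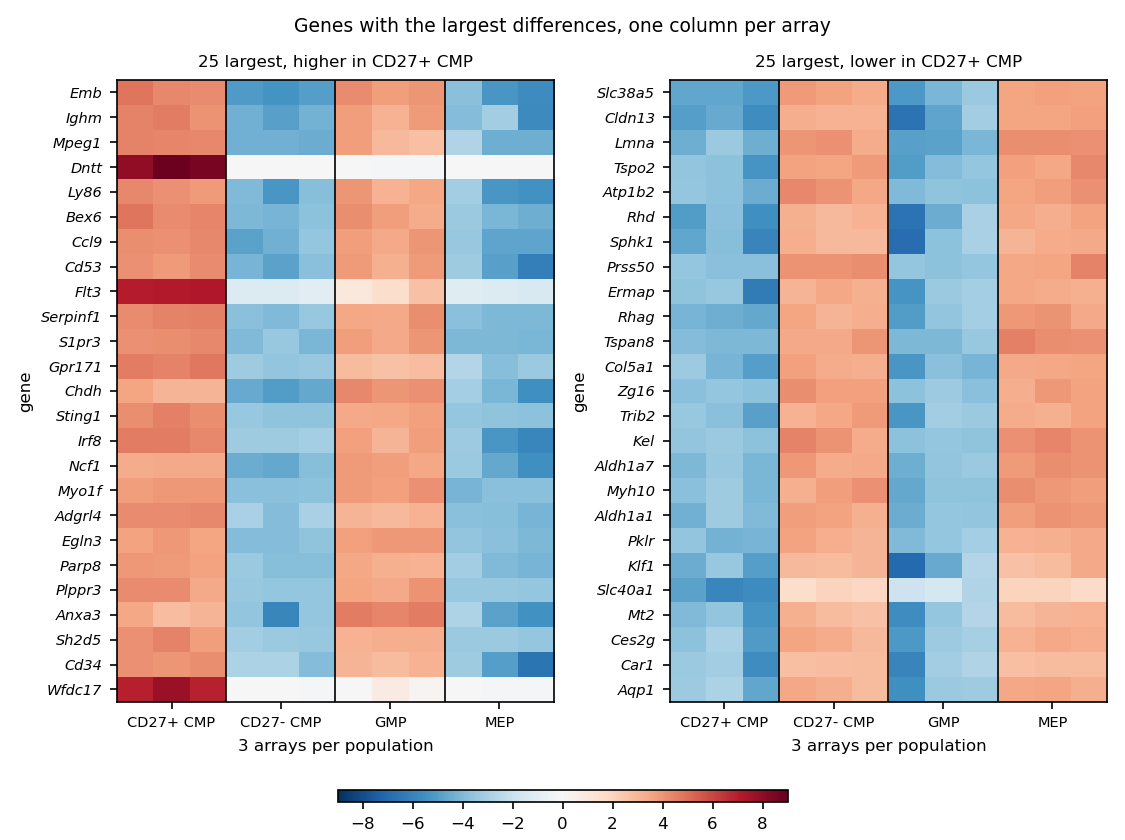
Centred log2 signal (colour, from -9 in blue to 9 in red) of the 25 genes with the largest differences in each direction (rows) in the 3 arrays of each population (columns). CD27+ CMP and GMP share the colour in nearly every row, as do CD27- CMP and MEP, while Dntt and Wfdc17 are high in the CD27+ CMP arrays alone.

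Of 24 measured transcription factors of the granulocyte-monocyte path, 14 were higher in CD27+ CMP (58.3%), 10 were not called and 0 were lower by limma. The lower count was 0 also at an unadjusted p under 0.05 and in a fit of all 12 arrays, and 1 without CD27- CMP replicate 3. The median difference was 2.30 log2. Over all genes 9.35% were higher, 6.71% were lower and the median was -0.03, and the count of every list is to be read against these shares. Irf8, which drives monocyte and dendritic cell fate, read 4.60, 4.60 and 4.36 in CD27+ CMP and -3.22, -3.22 and -3.06 in CD27- CMP (difference 7.69, SE 0.09, adjusted p = 1.73e-05), and its other probe set differed by 7.96. Cebpa, the C/EBP factor required to form GMP, read 3.34, 3.03 and 2.81 against -2.81, -5.10 and -4.29 (difference 7.13, SE 0.62, adjusted p = 0.00291). The fractions stood apart for both, with the wider spread among CD27- CMP arrays for Cebpa. Gfi1, a transcriptional repressor known from granulocyte progenitors, was higher by 6.05 (SE 0.42, adjusted p = 0.00151). Tfec, a macrophage factor of the MiT family, was higher by 5.82 and Nfil3, a bZIP factor, by 5.41. Spi1 read 3.06, 2.80 and 2.43 against -1.93, -2.89 and -3.05 (difference 5.39, SE 0.36, adjusted p = 0.00127). Klf4, a monocyte factor, did not pass (1.45, SE 0.46, adjusted p = 0.156), with CD27+ CMP arrays at 1.94, 1.28 and 0.19.

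Of 34 measured receptors for growth factors and cytokines, 18 were higher and 2 lower in CD27+ CMP (median 1.76 log2). The receptors for the myeloid colony-stimulating factors were among the higher ones. Csf1r, the receptor of macrophage colony-stimulating factor, read 3.75, 3.70 and 3.75 in CD27+ CMP and -2.89, -2.65 and -4.03 in CD27- CMP (difference 6.92, SE 0.39, adjusted p = 0.000728). Csf2rb, the common beta chain for GM-CSF, IL-3 and IL-5, was higher by 6.86 (SE 0.52, adjusted p = 0.00195), although its close copy Csf2rb2 may share part of the signal, which was not tested. Csf3r, the receptor of granulocyte colony-stimulating factor, read 2.41, 2.74 and 2.71 against -2.45, -2.44 and -2.49 (difference 5.08, SE 0.10, adjusted p = 4.74e-05). Flt3, the receptor of FLT3 ligand and a marker of early lympho-myeloid progenitors, was higher by 8.28 (SE 0.11, adjusted p = 1.75e-05). Both chains of the IL-6 receptor were higher, Il6ra by 6.21 and Il6st by 6.13, as were the IL-4 receptor chain Il4ra, by 5.50, and the IL-3 receptor chain Il3ra, by 3.22. The lower pair was Epor, the erythropoietin receptor, and Ifngr1. Epor read -2.93, -3.50 and -3.75 in CD27+ CMP and 3.59, 3.07 and 2.93 in CD27- CMP (difference -6.59, SE 0.29, adjusted p = 0.000342). Ifngr1 differed by -1.30, and its call was lost without CD27+ CMP replicate 2, CD27- CMP replicate 1, CD27- CMP replicate 2 or CD27- CMP replicate 3, with adjusted p between 0.0547 and 0.0777.

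Within CD27's own receptor family, 7 of 20 measured members were higher and 0 lower by limma (median 0.01, 1 lower at an unadjusted p under 0.05 and 0 lower in a fit of all 12 arrays). The higher count was 3 without CD27+ CMP replicate 1 and 4 without CD27- CMP replicate 1 or CD27- CMP replicate 2, and 1 was lower without CD27- CMP replicate 3. Besides Cd27, Tnfrsf13b, the receptor TACI for BAFF and APRIL, read 2.91, 3.05 and 2.76 in CD27+ CMP and -2.62, -2.63 and -3.59 in CD27- CMP (difference 5.86, SE 0.30, adjusted p = 0.000567). Tnfrsf1a, the main receptor of tumour necrosis factor, was higher by 3.08 (SE 0.24, adjusted p = 0.00222). Tnfrsf1b, Ltbr, Tnfrsf21 and Tnfrsf22 were higher by 3.03, 2.29, 1.6 and 0.53, and each lost its call without some single arrays. Of the 20 members, 10 were flat over all arrays.

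Of 29 measured neutrophil granule genes, 17 were higher in CD27+ CMP, 12 were not called and 0 were lower by limma (median 2.65 log2, 0 lower also at an unadjusted p under 0.05 and in a fit of all 12 arrays). Ctsg, the protease cathepsin G, read 2.87, 2.70 and 2.49 in CD27+ CMP and -2.62, -2.83 and -3.25 in CD27- CMP (difference 5.58, SE 0.19, adjusted p = 0.000182). Prtn3, proteinase 3, was higher by 5.22, and Mpo, myeloperoxidase, by 4.39. Elane, neutrophil elastase, read 3.74, 2.36 and 1.75 against -1.95, -3.67 and -2.43 (difference 5.30, SE 0.70, adjusted p = 0.0112), a wide spread in both fractions. Camp, Ltf and Lcn2, known from later granules, differed by -0.01, -0.01 and 0.05, with no call. Not all other granule genes were flat, with Anxa3 higher by 7.41 and Hp by 6.43. S100a8 read 1.60, 0.26 and -2.74 within CD27+ CMP alone, the widest spread of the list, and did not pass (adjusted p = 0.999).

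Of 30 measured monocyte and macrophage genes, 19 were higher and 0 lower by limma (median 3.89 log2, 0 lower also at an unadjusted p under 0.05 and in a fit of all 12 arrays). Ccr2, the chemokine receptor of inflammatory monocytes, read 4.25, 3.82 and 2.93 in CD27+ CMP and -2.82, -3.88 and -3.44 in CD27- CMP (difference 7.05, SE 0.45, adjusted p = 0.00109). Ctss, the lysosomal protease cathepsin S, was higher by 6.78 (SE 0.22, adjusted p = 0.000144), and Cd68, a lysosomal membrane protein, by 6.49 (SE 0.14, adjusted p = 6.14e-05). Sirpa, the receptor of the CD47 signal, read 3.17, 3.04 and 2.91 against -3.02, -2.93 and -2.91. Adgre1, the gene of F4/80, differed by 0.29, Cd14 by 0.19 and Fcgr1 by 0.04, with no call. Clec7a, Cx3cr1 and Itgam were called higher, by 5.43, 3.44 and 1.73. The GMP means were 2.52 for Adgre1 and 3.58 for Cd14.

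Among 32 genes of the phagocyte NADPH oxidase and of innate sensing, 12 were higher, 19 were not called and 1 was lower (median 0.16 log2), and 11 were flat over all arrays. Without CD27- CMP replicate 3, 3 were lower. The oxidase subunits Ncf1 (p47phox) and Ncf4 (p40phox) were higher by 7.67 and 6.69. The membrane subunit Cybb was higher by 3.79 (SE 0.51, adjusted p = 0.0116). Casp1, the inflammasome protease, was higher by 4.78 and the receptor Tlr2 by 4.56. Alox5 (5-lipoxygenase) and its activating protein Alox5ap differed in opposite directions, at -0.99 (SE 0.15, adjusted p = 0.0172) and 4.84 (SE 0.16, adjusted p = 0.000166). The call of Alox5 was lost without CD27+ CMP replicate 2 (adjusted p = 0.0547), CD27- CMP replicate 1 (adjusted p = 0.0585) or CD27- CMP replicate 2 (adjusted p = 0.0654).

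Of 36 measured regulators of lymphoid and of multipotent progenitors, 14 were higher (38.9%) and 1 lower (2.78%) in CD27+ CMP (median 0.70 log2), against 9.35% and 6.71% of all genes. Without CD27- CMP replicate 3, 2 were lower. Dntt, the terminal transferase that adds bases at antigen receptor joints, read 7.96, 8.84 and 8.55 in CD27+ CMP and 0.05, -0.00 and -0.06 in CD27- CMP (difference 8.45, SE 0.24, adjusted p = 0.000104). Satb1, a chromatin organiser of lymphoid priming, read 4.53, 4.08 and 4.33 against -2.81, -3.47 and -2.50 (difference 7.24, SE 0.28, adjusted p = 0.000252). Notch1 was higher by 6.43 (SE 0.47, adjusted p = 0.00171), and Ighm, the heavy chain of IgM, by 8.85 (SE 0.25, adjusted p = 0.000102). Genes known from stem and multipotent cells stood beside them. Hlf, a bZIP factor of stem cells, read 3.02, 2.97 and 2.83 against -1.08, -1.10 and -1.19 (difference 4.06, SE 0.06, adjusted p = 2.94e-05). Hmga2 was higher by 4.90, Erg by 4.24, Hoxa7 by 3.52, Mecom by 3.00, Meis1 by 2.45 and Hoxa9 by 2.19. Genes of B cell commitment differed among themselves. Cd79b, which carries signals of the antigen receptor, was higher by 5.10 (SE 0.33, adjusted p = 0.0012), while its partner Cd79a differed by -0.01, Ebf1 by -0.09, Pax5 by -0.06 and Rag1 by -0.02, with no call. Bcl11a was the lower member, with -1.27, -0.57 and -1.18 against 0.81, 0.57 and 1.09 (difference -1.83, SE 0.24, adjusted p = 0.0107).

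Transcription factors of the erythroid and megakaryocytic paths divided: of 34 measured, 9 were lower and 6 higher in CD27+ CMP (median -0.25 log2), where 6.71% of all genes were lower. Klf1, the main activator of erythroid genes, read -4.49, -3.38 and -4.99 in CD27+ CMP and 2.95, 2.82 and 3.08 in CD27- CMP (difference -7.23, SE 0.44, adjusted p = 0.000913). Gata1 read -4.15, -2.35 and -3.54 against 2.71, 2.44 and 2.35 (difference -5.85, SE 0.49, adjusted p = 0.0025). Its cofactor Zfpm1 (FOG-1) differed by -3.90 (SE 0.25, adjusted p = 0.00117), its target and repressor partner Gfi1b by -4.93 (SE 0.22, adjusted p = 0.000364), and the bHLH factor Tal1 by -2.49 (SE 0.32, adjusted p = 0.00978). Nfia, a nuclear factor I protein linked to erythroid fate, differed by -6.05 (SE 0.15, adjusted p = 8.3e-05). Gata2, a factor of earlier progenitors, did not pass with its representative probe set (-0.77, SE 0.23, adjusted p = 0.133), while its other probe set did (-0.76, SE 0.09, adjusted p = 0.00802). Of the 6 higher members, Fli1, an ETS factor of megakaryocytes, had the firmest call (2.69, SE 0.12, adjusted p = 0.000363). The higher count was 1 without CD27+ CMP replicate 1, CD27+ CMP replicate 3, CD27- CMP replicate 1 or CD27- CMP replicate 2, and 2 without CD27+ CMP replicate 2.

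Of 28 measured genes of the red cell membrane and blood groups, 21 were lower and 1 higher in CD27+ CMP (median -2.98 log2). Rhag and Rhd, proteins of the Rh complex, differed by -7.68 (SE 0.17, adjusted p = 6.46e-05) and -7.84 (SE 0.48, adjusted p = 0.000943). Rhag read -4.17, -4.38 and -4.61 in CD27+ CMP and 3.54, 3.06 and 3.28 in CD27- CMP. Kel, the Kell blood group protease, read -3.56, -3.31 and -3.69 against 4.46, 4.08 and 3.31 (difference -7.47, SE 0.32, adjusted p = 0.000339). The membrane skeleton genes Add2 and Ank1 differed by -6.67 and -6.40, the carbonic anhydrases Car1 and Car2 by -6.82 and -3.74, and the water channel Aqp1 by -6.81. Slc4a1, the anion exchanger band 3 of mature red cells, was not called (-0.47, SE 0.24, adjusted p = 0.412). The higher member was the glucose transporter Slc2a1, at 1.47, 2.05 and 1.33 against -1.33, -3.33 and -2.94 (difference 4.15, SE 0.59, adjusted p = 0.0138). That call was lost without CD27+ CMP replicate 1 or CD27+ CMP replicate 3, with adjusted p up to 0.0525.

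The stretch just upstream of the start site is printed for 7 of these lower erythroid genes and for Elane, because each holds a short motif of a factor named above within its last 100 bases. The 7 erythroid genes belong to the group that was high together in CD27- CMP, and Elane stands for the granule genes that were high in CD27+ CMP. The sequences are those of RefSeq on GRCm38.p6, 100 bases to the base before the start, on the strand of the gene, and capitals mark AGATAA or TGATAA on either strand (bound by GATA factors) or, for Elane, GAGGAAG (bound by PU.1 and other ETS factors). They were picked after the motif search. The ETS motif was marked only in Elane, and Rhd also holds it on the other strand, unmarked, as cttcctc.
Klf1, chr8:84901882-84901981, plus strand: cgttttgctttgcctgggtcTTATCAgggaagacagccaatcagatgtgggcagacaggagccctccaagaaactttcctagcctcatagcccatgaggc
Epor, chr9:21963577-21963676, minus strand: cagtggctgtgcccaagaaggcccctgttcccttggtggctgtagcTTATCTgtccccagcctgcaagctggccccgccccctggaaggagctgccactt
Rhag, chr17:40811049-40811148, plus strand: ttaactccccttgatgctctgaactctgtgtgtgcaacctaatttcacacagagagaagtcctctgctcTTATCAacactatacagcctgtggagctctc
Rhd, chr4:134864436-134864535, plus strand: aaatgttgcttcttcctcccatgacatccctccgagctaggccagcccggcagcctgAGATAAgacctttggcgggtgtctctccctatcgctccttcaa
Kel, chr6:41704326-41704425, minus strand: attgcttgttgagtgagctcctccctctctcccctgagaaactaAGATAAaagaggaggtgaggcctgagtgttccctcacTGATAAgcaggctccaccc
Ermap, chr4:119189996-119190095, minus strand: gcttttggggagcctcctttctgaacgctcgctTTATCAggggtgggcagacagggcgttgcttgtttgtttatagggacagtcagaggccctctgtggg
Pklr, chr3:89136042-89136141, plus strand: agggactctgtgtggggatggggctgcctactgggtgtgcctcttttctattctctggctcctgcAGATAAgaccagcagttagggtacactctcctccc
Elane, chr10:79886212-79886311, plus strand: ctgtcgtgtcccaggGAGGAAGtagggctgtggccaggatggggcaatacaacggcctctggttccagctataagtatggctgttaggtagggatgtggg

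The first base of the motif lies 80 bases before the start in Klf1, 54 in Epor, 31 in Rhag, 43 in Rhd, 56 and 19 in Kel, 67 in Ermap and 35 in Pklr. In Elane the ETS motif begins 85 bases before the start. Over windows from 250 bases before to 50 after each start, the GATA motifs stood in 13.4% of the windows of lower genes, 11.2% of those of higher genes and 12.9% of the 18109 windows of all measured genes. The ETS motif stood in 16.6% of the windows of higher genes, 11.6% of those of lower genes and 13.5% of all. The Kruppel-like motif CCACACCC stood in 4.11% of the windows of higher genes, 3.92% of those of lower genes and 3.83% of all. For the C/EBP motif TTGCNNAA these shares were 9.49%, 8.61% and 9.39%, and for the Runx motif TGTGGT they were 14.6%, 14.3% and 13.7%. Every motif was searched on both strands. For the lists, genes with a motif in any of their windows were counted, so these counts and the shares of windows above have different units. Among the red cell membrane genes with a window, 8 of 20 held a GATA motif and 3 held the ETS motif. Among the haem and iron genes, also mostly lower in CD27+ CMP, 5 of 21 held a GATA motif and 6 the ETS motif. Among the granule genes 4 of 24 held a GATA motif and 10 the ETS motif, and among the monocyte genes 2 and 10 of 24 did. These are matches of letters and no measure of binding.

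Of 27 measured genes of haem synthesis and iron handling, 16 were lower and 1 higher in CD27+ CMP (median -1.78 log2), and the higher count was 2 without CD27+ CMP replicate 2. The lower genes covered steps of the pathway after the first. Alad, Uros, Urod, Cpox, Ppox and Fech, which carry porphyrin synthesis to haem, differed by -2.48, -1.78, -2.44, -4.02, -1.99 and -2.41, each past the threshold. Slc25a38, the mitochondrial glycine carrier, differed by -3.48 and Tfr2, a transferrin receptor, by -3.33. Slc40a1, the iron exporter ferroportin, read -4.81, -5.84 and -5.66 in CD27+ CMP and 1.56, 1.99 and 1.84 in CD27- CMP (difference -7.23, SE 0.31, adjusted p = 0.000321). The enzyme of the first step divided by isoform. Alas1, the general form, was the higher member (2.38, SE 0.13, adjusted p = 0.000626), and Alas2, the erythroid form, was flat in all arrays (-0.00, SE 0.02, adjusted p = 0.937). Tfrc, the main transferrin receptor, was not called (-1.61, SE 0.53, adjusted p = 0.171). Of the 6 measured globin genes 0 were called by limma, with differences between -0.49 and 0.21, 0 at an unadjusted p under 0.05 and 0 in a fit of all 12 arrays. The lower count was 1 without CD27- CMP replicate 3.

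Of 27 measured megakaryocyte and platelet genes, 4 were higher (14.8%) and 2 lower (7.41%) in CD27+ CMP (median -0.05 log2), near the 9.35% and 6.71% of all genes. The higher count was 2 without CD27+ CMP replicate 1, CD27- CMP replicate 2 or CD27- CMP replicate 3. Gp5, a subunit of the von Willebrand factor receptor, read -2.88, -1.65 and -2.21 in CD27+ CMP and 2.51, 2.04 and 1.69 in CD27- CMP (difference -4.33, SE 0.39, adjusted p = 0.00314). F2r, the thrombin receptor PAR1, was lower (-2.60, SE 0.13, adjusted p = 0.000556), while Plek, the platelet kinase C substrate pleckstrin, was higher by 3.56. CD27- CMP replicate 1 stood apart in this list, with a mean over its members of 0.90 log2 against -0.15 and -0.18 in the other CD27- CMP arrays and 0.06 to 0.37 in CD27+ CMP. Pf4, platelet factor 4, read 2.99 in that array and 0.64 and 1.24 in the others, and Vwf read 2.55 against 1.03 and 0.38. Neither Pf4 (adjusted p = 0.329) nor Vwf (adjusted p = 0.156) passed. Whether that array's platelet signal has a part in the other results was not tested.

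**Figure D4:**
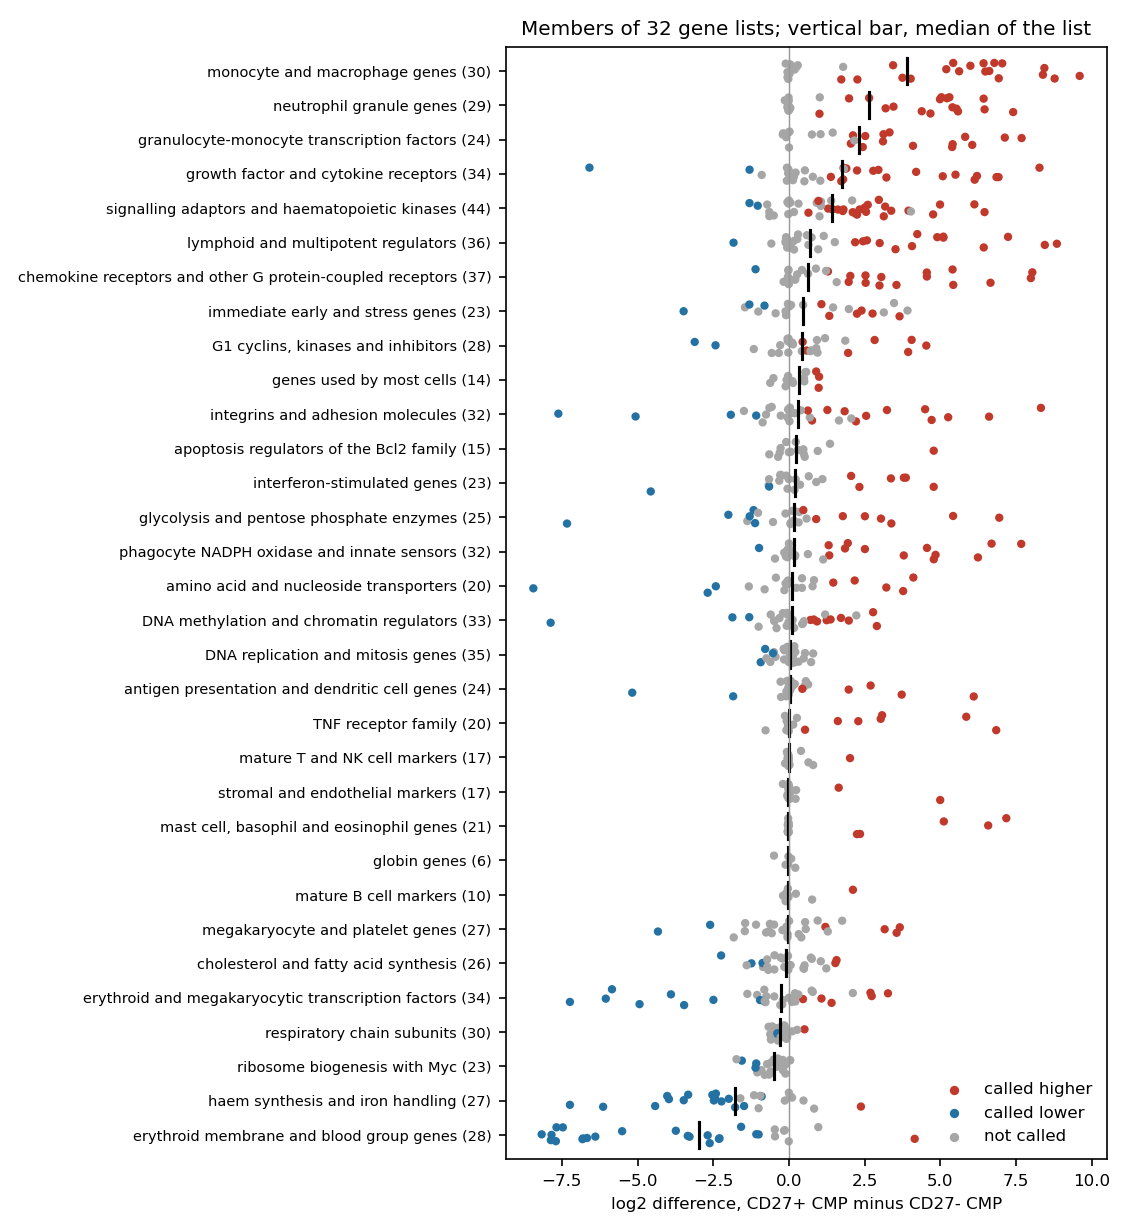
Log2 difference of CD27+ minus CD27- CMP (horizontal axis) for the measured members of 32 gene lists (rows, number measured in brackets), 1 point per gene, red where called higher, blue where called lower and grey where not called, with a vertical bar at the median of the list. Medians run from -2.98 for red cell membrane genes to 3.89 for monocyte and macrophage genes, and those of mature B, T and NK cell and stromal markers lie at about 0.

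Markers of other cells that a marrow sort could hold were mostly not called, as were 15271 of all 18193 genes. Of 10 measured mature B cell markers, 1 was higher (10%), and of 17 mature T and NK cell markers 1 was higher (5.88%). In either list 0 were lower by limma, at an unadjusted p under 0.05 or in a fit of all 12 arrays. Without CD27- CMP replicate 3 the lower count was 1 in each, and without CD27+ CMP replicate 1 the higher count of the T and NK cell list was 2. The B cell marker was Cd72, whose call was lost when any array but CD27- CMP replicate 1 was left out (adjusted p up to 0.148). The NK cell marker was Klrd1, at 2.09, 1.87 and 2.04 in CD27+ CMP and 0.00, -0.01 and -0.04 in CD27- CMP (difference 2.02, SE 0.07, adjusted p = 0.000149). Of 17 stromal and endothelial markers 2 were higher (11.8%), Pecam1 by 5.0 and Emcn by 1.64, both also known from stem and progenitor cells. The shares of the B cell, T and NK cell and stromal lists lay near the 9.35% of all genes. In these lists 5, 12 and 11 members were flat over all arrays. The mean of the B cell list ran from 0.08 to 0.32 in CD27+ CMP and from -0.15 to 0.06 in CD27- CMP, and that of the T and NK cell list from 0.17 to 0.29 and from -0.04 to 0.04. Among mast cell, basophil and eosinophil genes, 5 of 21 were higher and 16 were within 0.3 log2 of 0, and 1 was lower without CD27- CMP replicate 3. Mcpt8, a basophil protease, read 3.40, 3.60 and 3.52 in CD27+ CMP and -3.40, -3.94 and -3.68 in CD27- CMP (difference 7.18, SE 0.15, adjusted p = 5.84e-05). Cpa3, the mast cell carboxypeptidase, was higher by 6.58 and Hdc, which makes histamine, by 5.12. Prg2, the eosinophil major basic protein, differed by -0.04, with a mean of 6.15 in GMP. The part of such cells in the other results was not tested.

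Among 24 measured genes of antigen presentation and dendritic cells, 5 were higher and 2 lower (median 0.02). Lsp1, an actin-binding protein of leukocytes, read 5.08, 5.40 and 5.37 in CD27+ CMP and -0.48, -0.98 and -1.0 in CD27- CMP (difference 6.10, SE 0.18, adjusted p = 0.000114). H2-Ob and H2-DMa, which edit peptide loading of class II molecules, were higher by 3.72 and 2.70, while the class II gene H2-Aa was not called (0.19). Zbtb46, a zinc finger factor known from conventional dendritic cells and also from committed erythroid progenitors, was lower, at -2.47, -2.48 and -2.45 against 2.69, 3.00 and 2.43 (difference -5.18, SE 0.15, adjusted p = 0.000111). Irf7, a factor of the interferon response, was lower (-1.84, SE 0.15, adjusted p = 0.00249), opposite to Irf8.

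Of 32 integrins and adhesion molecules, 12 were higher and 4 lower (median 0.29 log2). The tetraspanins went both ways: Cd53 was higher by 8.32 (SE 0.31, adjusted p = 0.000214), whereas Tspan8, Cd82 and Cd81 differed by -7.62, -1.92 and -1.08. Cd93, Icam1, Itgb5 and Itgal were higher by 6.61, 5.26, 4.71 and 4.50. Adgre5, the adhesion receptor CD97, was lower, at -3.59, -3.05 and -4.46 against 1.60, 1.56 and 0.95. Of 37 chemokine and other G protein-coupled receptors, 15 were higher (40.5%) and 1 lower (2.7%), with a median of 0.63, and the lower count was 2 without CD27- CMP replicate 3. The sphingosine 1-phosphate receptors divided: S1pr3 was higher by 8.04 and S1pr2 by 3.55, and S1pr4 was the lower member, at -1.10 (SE 0.13, adjusted p = 0.00714). Ptger2, a prostaglandin E2 receptor, was higher by 6.66, P2ry14, a receptor of UDP-glucose found on early progenitors, by 5.41, and Cxcr4, which keeps progenitors in the marrow, by 3.05.

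Of 44 signalling adaptors and kinases of blood cells, 23 were higher and 2 lower (median 1.42 log2). Rgs2, a regulator of G protein signalling, was higher by 6.46. Lat2, an adaptor of Fc and B cell receptor signalling, read 3.14, 3.76 and 3.60 in CD27+ CMP and -1.31, -1.21 and -1.95 in CD27- CMP (difference 4.99, SE 0.27, adjusted p = 0.000652). Rgs10, another member of the Rgs family, went the other way by a small and tight difference, with -0.40, -0.41 and -0.40 against 0.58, 0.66 and 0.63 (difference -1.03, SE 0.03, adjusted p = 0.000103). Dok1, an adaptor that restrains kinase signals, differed by -1.30.

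Of 28 G1 cyclins, kinases and inhibitors, 7 were higher and 2 lower (median 0.44 log2). Cdkn1a, the inhibitor p21, read 4.01, 4.16 and 3.73 in CD27+ CMP and -0.56, -0.57 and -0.58 in CD27- CMP (difference 4.54, SE 0.11, adjusted p = 8.05e-05). Btg2, an antiproliferative cofactor, was higher by 4.05 and Ccnd1, cyclin D1, by 2.83. Ccne1, cyclin E1, was lower (-3.11, SE 0.32, adjusted p = 0.00475). The stress genes of the Gadd45 family divided, with Gadd45b at 3.94 and Gadd45a at -2.43. Of 35 replication and mitosis genes 0 were higher and 3 lower by limma (2 higher at an unadjusted p under 0.05, 2 in a fit of all 12 arrays and 1 without CD27+ CMP replicate 1), and 23 lay within 0.3 log2 of 0. The replicative helicase subunit Mcm2 differed by 0.02 (adjusted p = 0.897), and Cdc6, a licensing factor, by -0.93 (SE 0.06, adjusted p = 0.00135). In the Bcl2 family of apoptosis regulators 1 of 15 was called, Bcl2 itself, at 3.32, 2.67 and 3.51 against -1.95, -1.69 and -1.21 (difference 4.78, SE 0.30, adjusted p = 0.00107). The count was 2 without CD27+ CMP replicate 3 or CD27- CMP replicate 3.

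Of 25 enzymes of glycolysis and the pentose phosphate path 8 were higher and 5 lower (median 0.16 log2), and the lower count was 3 without CD27+ CMP replicate 3. Isoforms of the same step differed in opposite directions. Pkm, the general form, read 2.23, 2.51 and 2.31 in CD27+ CMP and -2.23, -3.63 and -3.35 in CD27- CMP (difference 5.42, SE 0.39, adjusted p = 0.00167). Pklr, the red cell and liver form, read -3.58, -4.25 and -4.17 against 3.62, 3.28 and 3.09 (difference -7.33, SE 0.24, adjusted p = 0.000148). Of the hexokinases, Hk3 was higher by 6.95 (SE 0.17, adjusted p = 8.02e-05) and Hk2 by 3.04 (SE 0.11, adjusted p = 0.000219). Hk1 went the other way without a call for its representative probe set (-1.38, SE 0.40, adjusted p = 0.12), while its other probe set was called (-1.49, SE 0.11, adjusted p = 0.00191). Of the phosphofructokinases, Pfkp differed by 1.78 (adjusted p = 0.0073) and Pfkm by -2.0 (adjusted p = 0.00333). Of 30 respiratory chain subunits 1 was higher and 2 lower, with all differences between -0.67 and 0.51. The lower count was 5 without CD27+ CMP replicate 2 and 14 at an unadjusted p under 0.05, and the higher count was 2 without CD27- CMP replicate 3.

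Of 26 genes of cholesterol and fatty acid synthesis 2 were higher (7.69%) and 3 lower (11.5%), near the 9.35% and 6.71% of all genes. The higher count was 1 without CD27+ CMP replicate 1 or CD27+ CMP replicate 2, and the lower count ran from 0 without CD27- CMP replicate 2 to 5 without CD27- CMP replicate 3. Of 23 genes of ribosome biogenesis with Myc, 0 were higher and 3 lower by limma (median -0.51), with 0 higher and 12 lower at an unadjusted p under 0.05 and 0 higher and 8 lower in a fit of all 12 arrays. The lower count was 0 without CD27+ CMP replicate 3 or CD27- CMP replicate 1 and 1 without CD27- CMP replicate 2. Myc differed by -0.12 (adjusted p = 0.785). Of 20 transporters of amino acids and nucleosides 5 were higher (25%) and 3 lower (15%). Slc43a2 and Slc7a6 were higher by 4.11 and 3.77, against Slc38a5 at -8.44 and Slc7a7 at -2.42. Of 14 genes used by most cells 3 were higher (21.4%), by at most 1.00 log2, and 0 lower by limma (1 lower at an unadjusted p under 0.05 and 0 in a fit of all 12 arrays). The higher count was 0 without CD27+ CMP replicate 2 and 1 without CD27- CMP replicate 1. Actb, the gene of beta-actin, differed by 0.11 (adjusted p = 0.817).

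Of 23 interferon-stimulated genes, 6 were higher (26.1%) and 2 lower (8.7%), with a median of 0.18 log2. The lower count was 1 without any single CD27+ CMP array or without CD27- CMP replicate 2, and 3 without CD27- CMP replicate 3. Ifi27l2a read 4.50, 4.58 and 3.89 in CD27+ CMP and 0.01, -0.91 and -0.47 in CD27- CMP (difference 4.78, SE 0.31, adjusted p = 0.00119). Ifitm1, a restriction factor known from stem cells, was higher by 3.80. Isg20, an exonuclease, went the other way (-4.57, SE 0.49, adjusted p = 0.00565). Of 23 immediate early and stress genes, 6 were higher and 3 lower (median 0.47), and the lower count was 1 without CD27+ CMP replicate 3. Egr1, an early growth response factor, was lower, at -1.01, -0.33 and -0.99 against 2.69, 3.04 and 2.37 (difference -3.48, SE 0.27, adjusted p = 0.00194). Fosl2 was higher by 3.65 (SE 0.20, adjusted p = 0.000687).

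Of 33 genes of DNA methylation and chromatin, 9 were higher and 3 lower (median 0.10 log2). The higher count was 5 without CD27+ CMP replicate 2, CD27- CMP replicate 1 or CD27- CMP replicate 2. The nuclear lamina showed opposite differences, with Lmna at -7.87 and the B-type lamin gene Lmnb1 higher, at 0.46, 0.57 and 0.83 against -0.94, -0.77 and -0.55 (difference 1.38, SE 0.14, adjusted p = 0.00523). Sun2, which ties the lamina to the cytoskeleton, was higher by 2.78 (SE 0.14, adjusted p = 0.000531). The class IIa histone deacetylases also divided, with Hdac9 at 2.90 (adjusted p = 0.00857) and Hdac7 at -1.87 (adjusted p = 0.00194). Dnmt3a, a de novo DNA methyltransferase often mutated in blood cancers, was higher by 1.98 (SE 0.19, adjusted p = 0.00384).

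The GMP and MEP arrays served to find genes for which 1 CMP fraction lay outside all 9 other arrays. Of 18193 genes, the CD27+ CMP arrays lay above all others for 566 called genes (3.11%) and below all others for 185 (1.02%). The CD27- CMP arrays lay above all others for 41 (0.225%) and below for 106 (0.583%). The differences against GMP and MEP that follow come from a fit over all 12 arrays and share the CMP arrays with the main comparison. The choice of the genes fixes the direction of these differences, so only their size is of interest. Dntt was near 0 outside CD27+ CMP and stood 8.52 above GMP and 8.45 above MEP. Wfdc17, a small secreted protein of the whey acidic protein family, read 7.0, 7.78 and 6.94 in CD27+ CMP, and no other array exceeded 0.75. Flt3 was 5.41 above GMP and 8.37 above MEP. Bach2, a transcriptional repressor known from lymphoid cells, read 3.53, 3.33 and 3.55 in CD27+ CMP against 0.01, 0.01 and 0.15 in CD27- CMP (difference 3.42, SE 0.08, adjusted p = 6.51e-05). It stood 3.50 above GMP and 3.52 above MEP. Ccl5, a chemokine, and Il1r1, the IL-1 receptor, were near 0 in the other populations and higher by 3.42 and 3.89 in CD27+ than in CD27- CMP. The other probe set of Il1r1 differed by -0.03.

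Below all other arrays, CD27+ CMP had Grb10, an adaptor that restrains insulin and growth factor receptors, at -4.72, -4.84 and -4.77 (difference from CD27- CMP -6.01, SE 0.20, adjusted p = 0.00017), and its difference from GMP was -3.64, which the choice of the gene fixes in direction. Its 2 other probe sets differed between the fractions by -0.08 and -0.02, and 1 of them read 0.25, 1.03 and 0.29 in MEP. Slc40a1 and Adgre5, chosen by the same rule, had differences from GMP of -3.39 and -2.58 in CD27+ CMP. Morn1 read 0.98, 1.51 and 1.59 in CD27- CMP and -0.27, -0.23 and -0.22 in CD27+ CMP (difference -1.60, SE 0.17, adjusted p = 0.00591). The other probe sets of Morn1 differed only by -0.029 to -0.006. Dna2, a nuclease of DNA replication, read 0.63, 1.15 and 0.87 in CD27- CMP and -0.12, 0.02 and -0.08 in CD27+ CMP, and its call was lost without CD27+ CMP replicate 1 (adjusted p = 0.0685) and without CD27+ CMP replicate 3 (adjusted p = 0.0716). Sh3pxd2b, a podosome scaffold protein, lay below all others in CD27- CMP, with the largest difference from CD27+ CMP of the 5 named, at -2.0, -2.01 and -2.07 against 1.08, 1.54 and 0.94 (difference 3.21, SE 0.16, adjusted p = 0.000565), while its other probe set differed by -0.00. Its difference from MEP was -0.83 and that of Morn1 0.85. In the fit of all 12 arrays neither passed against MEP (adjusted p = 0.35 and 0.22), nor did any other of the 10 named genes above all others in CD27- CMP (lowest adjusted p = 0.079, for Dna2). Of the 5 named below all others in CD27- CMP, only Efr3a passed against MEP in that limma fit (-1.13, adjusted p = 0.01).

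**Figure D5:**
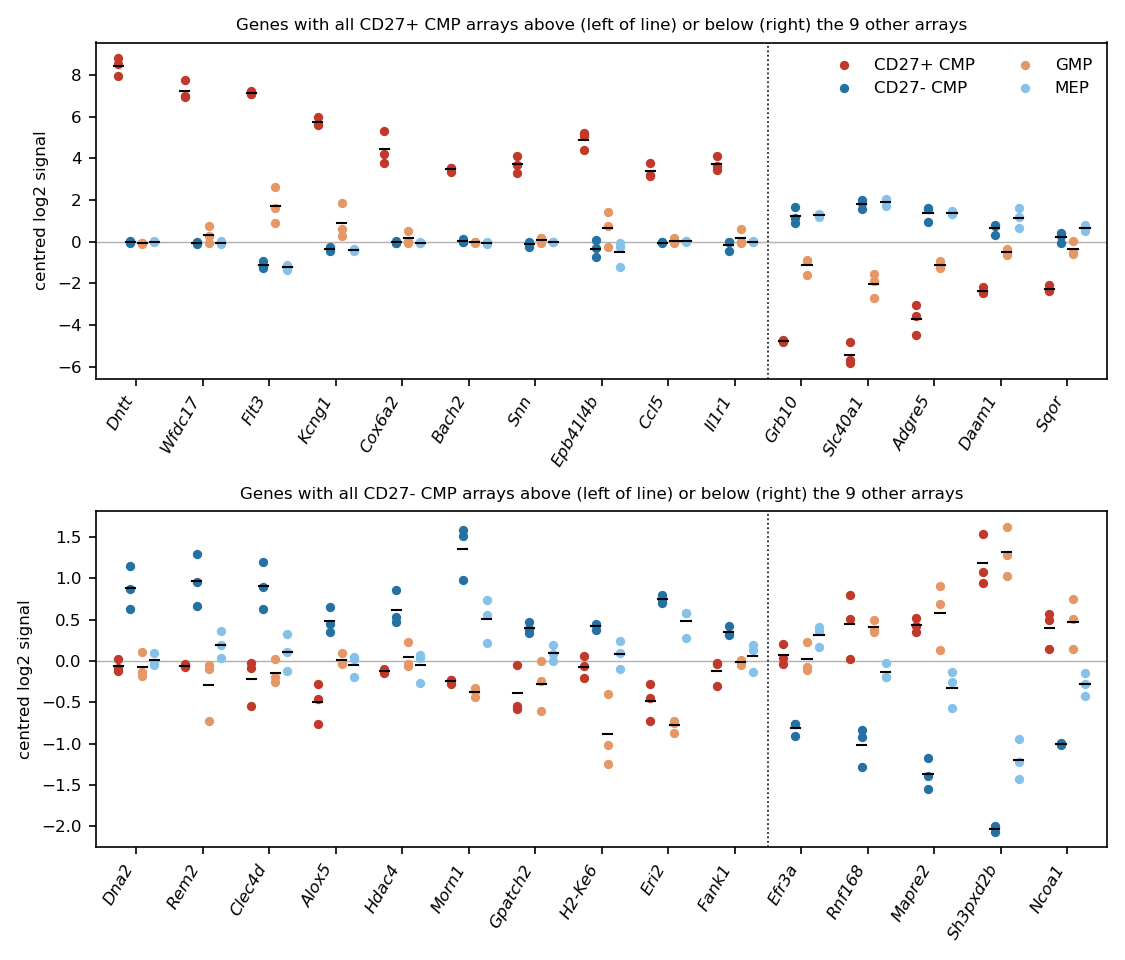
Centred log2 signal (vertical axis) of genes whose 3 CD27+ CMP arrays (upper panel) or CD27- CMP arrays (lower panel) lie above (left of the dotted line) or below (right of it) the 9 other arrays, 1 point per array with a bar at each mean. CD27+ CMP stands up to 8.84 for Dntt with all other arrays near 0, whereas the CD27- CMP genes above the others stay under 2.

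Some large differences did not pass, with arrays of a fraction far apart. Socs3, a feedback inhibitor of cytokine signals, read 2.18, 6.10 and 3.60 in CD27+ CMP and -0.00, -0.01 and -0.19 in CD27- CMP (difference 4.03, SE 1.03, adjusted p = 0.0885). Fos read 4.59, 2.22 and 0.84 against -1.34, -1.35 and -1.41 (difference 3.92, SE 0.99, adjusted p = 0.084). Jun read 3.33, 1.85 and 1.07 against -0.40, -1.59 and -1.15 (difference 3.13, SE 0.67, adjusted p = 0.0526), and the heat shock gene Hspa1b differed by 3.47 (SE 1.18, adjusted p = 0.181). For Fos, Jun and Hspa1b replicate 1 was the highest of the CD27+ CMP arrays and also of the GMP arrays, at 5.35, 3.23 and 4.63 in GMP. What these arrays share beyond the number was not tested. In the main comparison 8 genes had probe sets called in opposite directions, among them Myh9, a non-muscle myosin heavy chain (1.13 and -0.60), and Tsc22d1 (3.03 and -0.38), and no direction is given for them.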

How the data were processed

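Expression was measured on 12 Affymetrix arrays, 3 for each of 4 sorted progenitor populations, from RNA of 80000 cells per population per the labels' protocols. The values the authors deposited, for 45037 probe sets, are log2 expression. The submitters' processing notes name GCRMA, with a version not given in the sources used here, and base 2 was assumed from that method. The median of every probe set over the 12 arrays is 0 to rounding, so no filter on low signal could be set and all probe sets were tested. GCRMA draws weak signals toward background, so the size of a difference with one fraction near background is uncertain.

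The 6 CMP arrays were fitted with limma 3.58.1 in R 4.3.3 (lmFit and eBayes with defaults, two-sided, Benjamini-Hochberg adjustment over all probe sets, threshold 0.05), checked on simulated data. SE is the moderated standard error, with a median of 0.0792 log2, and the number of arrays limits the precision. Probe sets with 1 gene symbol numbered 34945, with several 932 and with none 9160. This gave 18193 genes, each read from the probe set of largest SD over the 12 arrays. Genes were named by rule: the 25 largest called differences in each direction without overlap of arrays, the 10 widest above and 5 below all other arrays for each fraction, the 8 largest uncalled, the 8 with opposed probe sets, the sort markers and members of 32 lists, of which 820 of 899 genes were measured. The members and lists were chosen with earlier results of these data known. Lists are described by counts and medians without a set test. Promoters were matched by symbol for 14452 genes. Alternatives covered normalization, centring, weights, a block, moderation, filters, the probe set of a gene and each array left out.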

Additional observations from a re-analysis of the deposited data

How the results depend on the processing

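The 4856 called probe sets (2776 higher, 2080 lower) and 2922 genes (1701 higher, 1221 lower) stayed within 1.5 times in every direction with all 12 arrays in 1 fit, quantile normalization, arrays centred on their median, robust moderation, a range filter, the gene's probe set chosen by GMP and MEP arrays and the mean of its probe sets. At a difference of at least 1 log2, 1305 probe sets were lower. Leaving out 1 array gave 3438 to 7661 called probe sets (2088 to 2765 higher, 1269 to 4896 lower) and 2119 to 3921 genes (1293 to 1674 higher, 759 to 2247 lower). Without CD27- CMP replicate 3 the share of called probe sets that were higher was 36.1%, against 57.2% with all arrays, and 2291 of its calls were under 0.2 log2. Array weights gave 25217 probe sets (6156 higher, 19061 lower, 24.4% higher) and 11099 genes (3369 higher, 7730 lower), but their estimate did not converge and gave CD27- CMP replicate 2 a weight of 192.3. With the replicate block, 2804 probe sets (1711 higher, 1093 lower) and 1738 genes (1073 higher, 665 lower) were called. The deviations of same-numbered arrays of the 2 CMP fractions correlated at -0.27, 0.092 and 0.14. These few values cannot decide whether the replicate numbers pair the samples, which was not tested further.

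Of 363 called genes that are named or listed, 284 kept the call without each single array, and 274 did with the block. Of 14 list counts at 0, 6 became 1 or more without CD27- CMP replicate 3. Hdac4, at -0.75 with its representative probe set, was 0.16 with the one chosen by GMP and MEP arrays. The cause of these changes was not tested. Without absolute signals, silent and evenly expressed genes cannot be told apart.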
